A study of Mus musculus with 26 samples.

Results

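The comparison is of wild-type mouse embryonic stem cells (WT ESC) with stem cells that lack Tet1, Tet2 and Tet3 through a triple knockout (TKO ESC), and its members are regions of RNA 5-hydroxymethylcytosine (5hmC). 5hmC peaks of the 3 WT ESC and 3 TKO ESC immunoprecipitated (IP) libraries, out of 13 IP libraries in the series, were merged into a region wherever they overlapped by 1 bp or more. This gave 14225 regions. Of these, 2073 had a peak in 2 or more WT ESC libraries and in no TKO ESC library (WT ESC-only), 336 had a peak in 2 or more TKO ESC libraries and in no WT ESC library (TKO ESC-only), and 1185 had a peak in 2 or more libraries of both groups (shared). The other 10631 regions met none of these conditions, among them 6187 found in a single WT ESC library and 2175 in a single TKO ESC library.

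5hmC in RNA was mapped by hMeRIP-seq, in which sonicated total RNA is pulled down with an antibody to 5hmC and sequenced beside its own input. Both kinds of cell were grown on gelatin in serum with leukaemia inhibitory factor (LIF), with no further treatment. The TKO ESC are 1 existing line with the genotype Tet1-Tet2-Tet3-KO, so that differences between lines and differences between genotypes cannot be told apart. Replicate 1 of each group carries the prefix 1608 in its sample description, whereas replicates 2 and 3 carry 1703. What the prefix marks is not stated, and replicates 2 and 3 are therefore also shown apart.

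TET proteins are dioxygenases that oxidise 5-methylcytosine to 5hmC. They are best known for this reaction in DNA, where it is a step of demethylation, and they act on cytosine in RNA as well. In embryonic stem cells Tet1 and Tet2 are the main members of the family, and Tet3 is better known from the zygote and from differentiated cells. A peak of hMeRIP-seq is a stretch of transcript that the antibody enriched over input, and it does not identify the modified base.

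The sequences under 4 regions show examples of a tandem repeat, of exon edges and of the hexamer GAGAGA. Each is 200 bases around the summit of the peaks, from build mm9 (NCBIM37), written 5′ to 3′ on the strand of the gene. Capitals mark the longest tandem repeat in the Zfp704 window, annotated exon in the Tbca and Krr1 windows, and GAGAGA in the Mdc1 window. Zfp704 carries the most WT ESC-only regions, Tbca and Krr1 lie among the leading TKO ESC-only regions, and Mdc1 is a strongly enriched shared region. The Mdc1 window was chosen for display after its values were seen. GAGAGA does not set the shared regions apart, with 23.9% of them against 23.4% of all regions in coding genes. The AGAT repeat of Zfp704 counts as a tandem repeat below, but its unit is not among those counted singly.
Zfp704 intron, chr3:9521902-9522101 (-): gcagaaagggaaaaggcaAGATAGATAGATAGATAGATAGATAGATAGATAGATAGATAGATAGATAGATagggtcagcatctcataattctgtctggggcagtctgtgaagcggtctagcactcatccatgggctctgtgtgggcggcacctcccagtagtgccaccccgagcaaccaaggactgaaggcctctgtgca
Tbca intron, chr13:95602336-95602535 (+): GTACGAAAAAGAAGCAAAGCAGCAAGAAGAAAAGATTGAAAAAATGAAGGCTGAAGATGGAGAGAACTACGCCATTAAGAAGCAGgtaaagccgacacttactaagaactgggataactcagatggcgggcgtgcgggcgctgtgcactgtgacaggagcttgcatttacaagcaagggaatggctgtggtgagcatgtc
Krr1 intron, chr10:111421472-111421671 (+): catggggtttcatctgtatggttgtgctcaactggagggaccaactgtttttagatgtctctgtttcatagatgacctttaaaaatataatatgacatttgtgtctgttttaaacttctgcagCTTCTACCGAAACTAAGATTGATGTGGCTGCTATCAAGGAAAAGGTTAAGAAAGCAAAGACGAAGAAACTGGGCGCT
Mdc1 coding sequence, chr17:35987569-35987768 (+): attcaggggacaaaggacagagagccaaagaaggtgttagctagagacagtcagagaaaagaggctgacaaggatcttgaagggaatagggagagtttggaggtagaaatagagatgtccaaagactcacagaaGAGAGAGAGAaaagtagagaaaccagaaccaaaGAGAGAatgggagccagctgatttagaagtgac
The Zfp704 window (intron 2) is WT ESC-only and lay far from any splice site, at 43062 bp. The Tbca window spans the 3′ end of an exon with the start of intron 2, its summit 16 bp into the intron. The Krr1 window spans the end of intron 9 with the next exon, its summit 23 bp before the splice site. The Tbca and Krr1 windows are TKO ESC-only, and neither holds a tandem repeat.

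The length of the lists differed between the libraries. Replicates 1 to 3 of WT ESC had 4395, 7113 and 6499 peaks, and those of TKO ESC had 964, 4323 and 3262. TKO ESC replicate 1 stood apart with the shortest list, and it contributed to 24 of the 336 TKO ESC-only regions. The median fold enrichment of IP over input at the summits was 6.25, 5.56 and 5.55 in WT ESC and 6.31, 7.28 and 6.52 in TKO ESC. The lists hold no read counts, so the depth of sequencing is unknown, and where a library has no peak, none passed the threshold there. The number of libraries limits the precision, and the intervals below cover counting error over regions only, which are not replicates.

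At the full length of the lists, regions of WT ESC were without a counterpart in TKO ESC more often than the reverse. Of the 4182 regions in 2 or more WT ESC libraries, 2073 or 49.6% had no TKO ESC peak (95% exact binomial interval 48.0 to 51.1%). Of the 1935 regions in 2 or more TKO ESC libraries, 336 or 17.4% had no WT ESC peak (15.7 to 19.1%). The 2 sets share no members by definition, so these are descriptions with no test. With each library cut to its 964 highest peaks, the length of the shortest list, 225 regions or 37.6% were WT ESC-only and 218 regions or 37.9% were TKO ESC-only. Presence in all 3 libraries of a group gave 495 WT ESC-only regions (32.2%) and 7 TKO ESC-only regions (2.03%). The TKO ESC-only set rested on replicates 2 and 3, which alone supplied 312 of its regions (92.9%). Without TKO ESC replicate 2 there were 16 TKO ESC-only regions, and without replicate 3 there were again 16, whereas 558 were counted without WT ESC replicate 2. The WT ESC-only set drew on every pair of replicates, with 395 regions in replicates 1 and 2, 444 in replicates 1 and 3, and 739 in replicates 2 and 3. It numbered 1234, 934 and 889 without WT ESC replicate 1, 2 and 3 in turn.

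In terms of genes, 1017 of the 1865 coding genes with a region in 2 or more WT ESC libraries (54.5%) had a WT ESC-only region. The reverse held for 245 of 1015 genes (24.1%) with a region in 2 or more TKO ESC libraries. The 2 lists of genes had 35 members in common, which is 3.44% of the first and 14.3% of the second. In 599 of the 1017 genes no TKO ESC library had a peak anywhere in the gene, whereas in 66 of the 245 genes no WT ESC library had one. TKO ESC-only regions lay nearer to peaks of the other group. The median distance from a TKO ESC-only region to the nearest WT ESC peak was 8258.5 bp, against 154492 bp from a WT ESC-only region to the nearest TKO ESC peak, and the WT ESC lists hold more peaks.

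The regions of the 3 sets lay in different parts of genes. WT ESC-only regions were mostly intronic (958 regions, 46.2%) or intergenic (817 regions, 39.4%), and 138 regions or 6.66% lay in coding sequence. TKO ESC-only regions were intronic in 190 cases (56.5%), intergenic in 25 (7.44%) and in coding sequence in 91 (27.1%, interval 22.4 to 32.2%). Shared regions resembled the latter, with 358 regions or 30.2% in coding sequence, 635 or 53.6% in introns and 116 or 9.79% between genes. Over all 14225 regions the shares were 14.6% in coding sequence, 55.1% in introns and 22.4% between genes. The untranslated regions (UTR) held few members. The 5′ UTR held 67 WT ESC-only regions (3.23%), 17 shared regions and 4 TKO ESC-only regions, and the 3′ UTR held 32, 25 and 13. In regions supported by replicates 2 and 3 alone, coding sequence took 8.12% of 739 WT ESC-only and 28.2% of 312 TKO ESC-only regions. Of these WT ESC-only regions 53.3% were intronic, 33.3% intergenic and 1.62% in 5′ UTRs. With lists of equal length, coding sequence took 4.89% of WT ESC-only and 37.2% of TKO ESC-only regions, and intergenic sequence 29.3% and 9.17%.

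**Figure D1:**
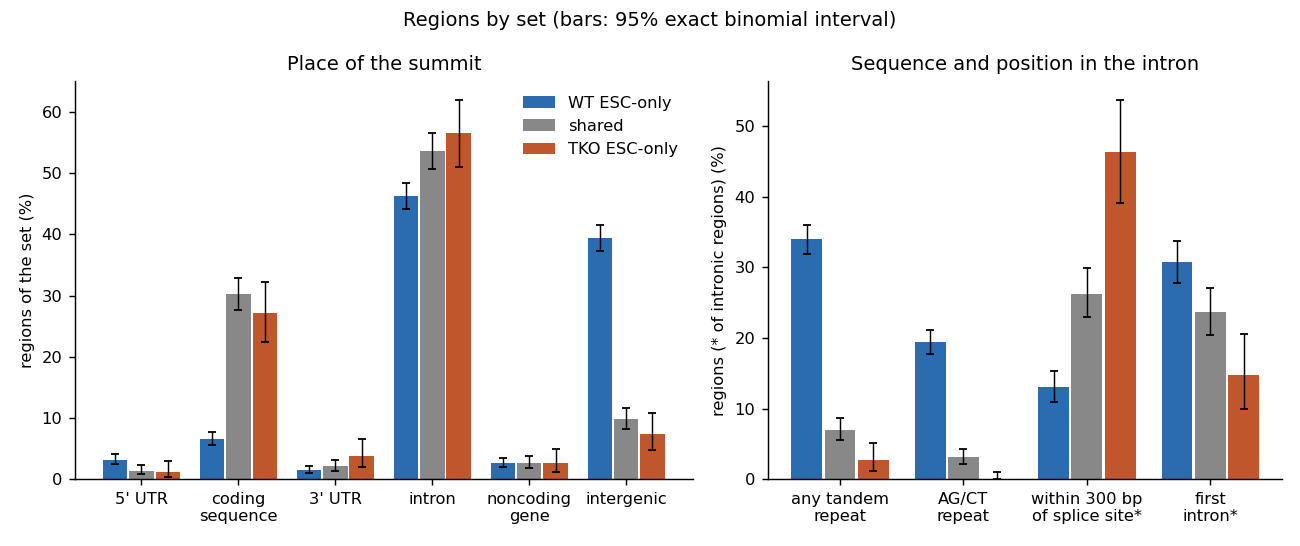
Share of WT ESC-only (2073), shared (1185) and TKO ESC-only (336) regions, in percent, by the place of the summit (left) and by sequence and position in the intron (right). Error bars are 95% exact binomial intervals. Coding sequence is low in WT ESC-only regions (6.66%), intergenic sequence and tandem repeats are high in them (39.4% and 34.0%), and positions within 300 bp of a splice site are most frequent in TKO ESC-only regions (46.3% of the intronic ones).

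The same difference was seen library by library over all peaks, without reference to the sets. Coding sequence held 15.9, 13.4 and 12.99% of the peaks of WT ESC replicates 1 to 3 and 31.1, 23.7 and 21.3% of those of TKO ESC. Every TKO ESC library was above every WT ESC library. The means were 14.1% ± 1.60 in WT ESC and 25.4% ± 5.11 in TKO ESC (mean ± SD of 3 libraries), a difference of 11.3 percentage points (two-sided exact permutation test, p = 0.1, which is the smallest value that 3 against 3 libraries allow, adjusted over 6 parts q = 0.300). Replicates 2 and 3 alone gave 9.30 points (exact permutation p = 0.333, the smallest with 2 against 2). Intergenic peaks made up 29.6, 23.1 and 26.2% in WT ESC and 15.2, 8.05 and 14.8% in TKO ESC. Here the TKO ESC libraries were all below the WT ESC libraries. The means were 26.3% ± 3.21 and 12.7% ± 4.03 (SD, 3 libraries a group), and the difference of -13.6 points had the same exact permutation p of 0.1 (-13.2 points in replicates 2 and 3). When an interval that touched an exon was counted as exonic, the difference in coding sequence was 18.99 points (exact permutation p = 0.1). Introns overlapped over 3 libraries, with 51.5% ± 6.37 in WT ESC and 53.4% ± 11.6 in TKO ESC (mean ± SD of 3 libraries, exact permutation p = 0.7). In replicates 2 and 3 they held 56.7 and 53.5% of WT ESC peaks and 62.0 and 57.9% of TKO ESC peaks, a difference of 4.90 points without overlap (exact permutation p = 0.333, the smallest with 2 against 2). The p-values measure the spread between these libraries, which the study describes as biological replicates, and none of these comparisons could reach 0.05.

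Within introns, TKO ESC-only regions lay close to exons. Of the 190 intronic TKO ESC-only regions, 86 or 45.3% (interval 38.0 to 52.6%) had their summit within 100 bp of a splice site. The share was 23.8% of 635 shared and 6.78% of 958 WT ESC-only intronic regions, and 18.1% over all 7836 intronic regions. The next interval, from 100 to 300 bp, held 2 TKO ESC-only, 16 shared and 60 WT ESC-only regions, so that in the TKO ESC-only and shared sets the intronic regions near a splice site were nearly all ones whose 200 bp interval reached into an exon (46.3% of TKO ESC-only, 24.6% of shared and 7.93% of WT ESC-only intronic regions). They lay on either side of the exon, and 53.4% of those within 300 bp in the TKO ESC-only set were nearer to the 5′ splice site. At the other end, 31.7% of WT ESC-only intronic regions were over 10000 bp from a splice site, against 16.3% of TKO ESC-only ones. First introns held 30.7% of WT ESC-only, 23.6% of shared and 14.7% of TKO ESC-only intronic regions. When an interval that touched an exon was counted as exonic, the intronic share of regions in coding genes was 73.8% in place of 80.2% in WT ESC-only and 34.2% in place of 63.8% in TKO ESC-only regions.

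Over all intronic peaks of a library, 20, 20.1 and 20.3% lay within 300 bp of a splice site in WT ESC and 32.2, 30.4 and 32.8% in TKO ESC. The groups did not overlap, and replicates lay close together, with means of 20.1% ± 0.134 and 31.8% ± 1.25 (SD, 3 libraries a group). The difference of 11.7 points had an exact permutation p of 0.1, the smallest possible (q = 0.200 over 2 positions). TKO ESC replicate 1, with its short list, lay between replicates 2 and 3 in this measure.

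**Figure D2:**
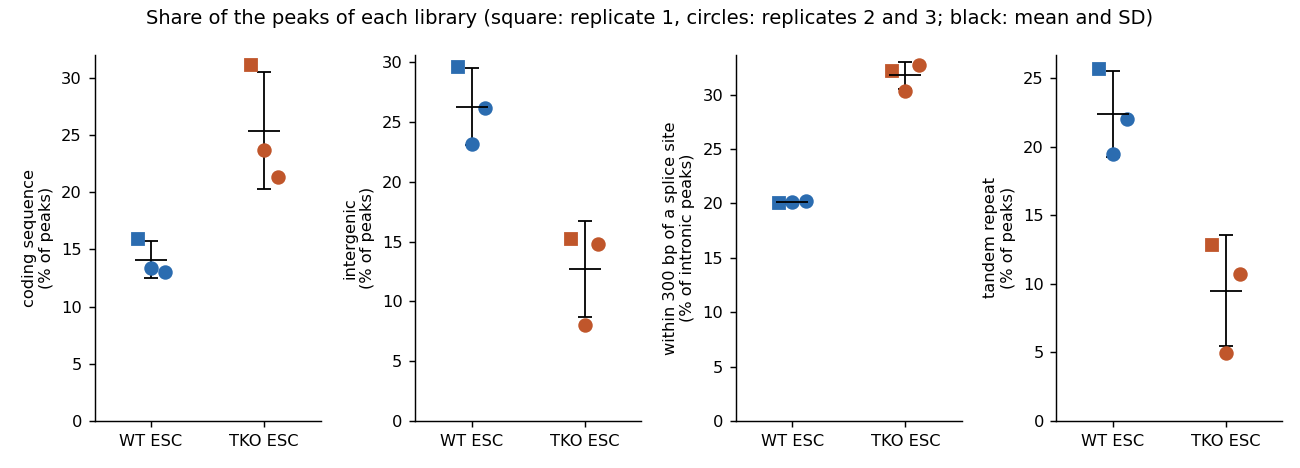
Share of the peaks of each library (%) in coding sequence, between genes, within 300 bp of a splice site (of intronic peaks) and over a tandem repeat. Squares are replicate 1, circles are replicates 2 and 3, and black marks are the mean and SD (n = 3). In each panel the 3 TKO ESC libraries lie on one side of the 3 WT ESC libraries.

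Tandem repeats, runs of at least 18 nt of a unit of 1 to 4 nt (20 nt for units of 4), were frequent under WT ESC-only regions. They were found in 702 of 2067 WT ESC-only regions on annotated chromosomes (34.0%, interval 31.9 to 36.0%), in 83 of 1183 shared regions (7.02%) and in 9 of 332 TKO ESC-only regions (2.71%, interval 1.25 to 5.08%). The most common unit was AG on one strand and CT on the other. This repeat was in 401 WT ESC-only regions (19.4%), in 37 shared regions (3.13%) and in 0 of 332 TKO ESC-only regions, for which the interval reaches 1.10%. On the transcript strand of introns the repeat ran as AG in 69 and as CT in 65 of the 958 WT ESC-only regions. AC/GT repeats were in 6.43% and ACAG/CTGT repeats in 5.03% of WT ESC-only regions. Repeats were more common between genes than within them. Among intergenic regions 51.8% of the WT ESC-only, 34.5% of the shared and 2 of the 25 TKO ESC-only regions had one, and among intronic regions 26.0, 5.83 and 3.16%.

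Per library, 25.7, 19.5 and 22.0% of WT ESC peaks and 12.8, 4.99 and 10.7% of TKO ESC peaks lay over a tandem repeat. All TKO ESC libraries were lower. The means were 22.4% ± 3.12 and 9.49% ± 4.04 (SD, 3 libraries a group), a difference of -12.9 points (exact permutation p = 0.1, the smallest possible, q = 0.167 over 5 features). Replicates 2 and 3 alone gave -12.9 points as well. With lists of equal length, repeats were in 23.1% of 225 WT ESC-only and 4.15% of 217 TKO ESC-only regions. AG/CT repeats were in 4 TKO ESC-only regions (1.84%) at that length, so their absence from the full set does not extend to the shortened lists.

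The base composition of the intervals differed too, read on the strand of the gene. Intervals with at least 65% pyrimidine made up 17.4% of WT ESC-only intronic regions, 2.83% of shared and 2.63% of TKO ESC-only ones. Without tandem repeats the values were 11.1, 2.51 and 1.63%. Intervals with at most 35% pyrimidine made up 44.7% of the shared regions in coding sequence, 23.2% of the WT ESC-only and 13.2% of the TKO ESC-only ones. In introns these shares were 32.9, 29.9 and 15.3%. Per library, over peaks in coding genes, they were 27.6% ± 3.61 in WT ESC and 29.6% ± 8.55 in TKO ESC. These values (mean ± SD of 3 libraries) overlapped (exact permutation p = 0.9). Hexamers were counted on the transcript strand of regions in coding genes, and a match may overlap a tandem repeat. TCTCTC was in 18.2% of WT ESC-only, 3.86% of shared and 4.70% of TKO ESC-only regions, against 9.05% of all regions in coding genes. GAAGAA was in 12.4, 33.7 and 26.5% (20.1% of all), and GAGAGA in 30.5, 23.9 and 18.8% (23.4% of all). Per library, over peaks in coding genes, the mean pyrimidine share was 42.1% ± 0.365 in WT ESC and 40.2% ± 1.27 in TKO ESC. The libraries (mean ± SD of 3 a group) did not overlap in it (exact permutation p = 0.1, the smallest possible, q = 0.167). The GC share, taken over the intervals of all peaks, was 48.1% ± 1.95 against 46.2% ± 5.06 and did overlap (exact permutation p = 0.6).

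Among the regions of 2 or more WT ESC libraries, the share without a TKO ESC peak depended on where the region lay and on its level. It was 22.8% of 606 regions in coding sequence (interval 19.5 to 26.3%), 46.0% of 2082 in introns, 59.8% of 112 in 5′ UTRs and 68.4% of 1195 between genes. It was 33.4% in introns within 300 bp of a splice site and 48.8% further away. Over a tandem repeat it was 70.6% of 994 regions, against 42.9% of 3179 regions without one. In introns these 2 values were 67.8 and 41.3%. By the mean within-library rank of fold enrichment (0 the lowest and 100 the highest region of a library), the share was 54.0, 59.3, 52.7 and 30.8% from the lowest to the highest of 4 equal rank bins. In coding sequence it ran from 31.0% in the lowest bin to 12.8% in the highest, and in introns from 60.6 to 26.6%. Intergenic regions were at 57.0% in the highest rank bin.

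**Figure D3:**
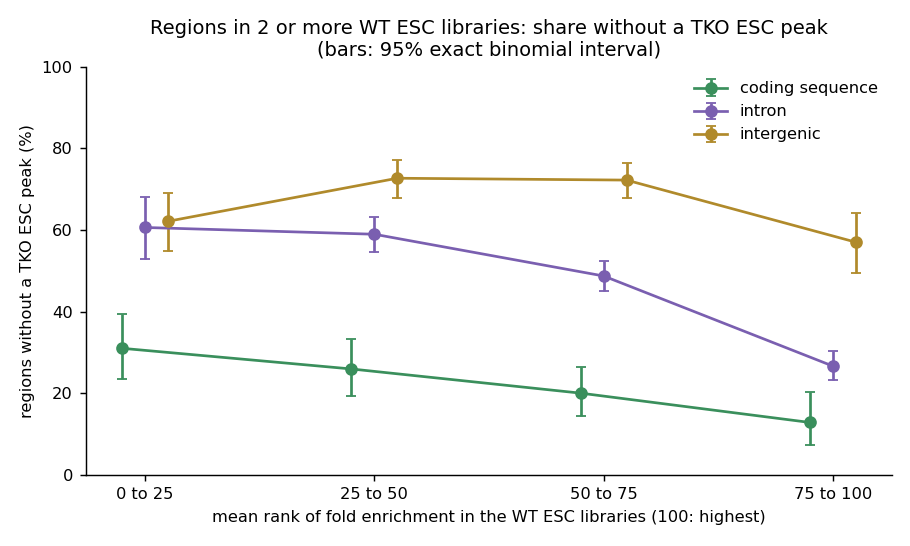
Share of regions in 2 or more WT ESC libraries that had no TKO ESC peak (%), by the mean rank of fold enrichment in WT ESC, for coding sequence, introns and intergenic sequence. Error bars are 95% exact binomial intervals. In the highest bin the shares are 12.8% in coding sequence, 26.6% in introns and 57.0% between genes.

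In the reverse direction coding sequence and introns were close. Of regions in 2 or more TKO ESC libraries, 16.2% of 561 in coding sequence and 17.7% of 1076 in introns had no WT ESC peak. Position within the intron differed in the opposite sense to WT ESC, with 26.5% of 332 regions within 300 bp of a splice site and 13.7% of 744 further away. None of the 40 TKO ESC regions over an AG/CT repeat lacked a WT ESC peak (0%, interval up to 8.81%). In the highest rank bin, 6.76% of TKO ESC regions had no WT ESC peak.

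Replicate 1 gave a check of regions chosen by replicates 2 and 3 alone. Of the 1319 regions with a peak in both WT ESC and neither TKO ESC library of the prefix 1703, 563 or 42.7% (interval 39.996 to 45.4%) had a peak in WT ESC replicate 1, and 85 or 6.44% had one in TKO ESC replicate 1. Of the 336 regions chosen in the opposite way, 17 or 5.06% had a peak in WT ESC replicate 1 and 9 or 2.68% in TKO ESC replicate 1. Over all 12816 regions with a peak in any of these 4 libraries, the shares were 22.5% in WT ESC replicate 1 and 5.83% in TKO ESC replicate 1. Regions with a peak in all 4 of these libraries had one in 58.5% of cases in WT ESC replicate 1 and in 34.0% in TKO ESC replicate 1. TKO ESC replicate 1 had 964 peaks and WT ESC replicate 1 had 4395, and the part of list length in these shares was not tested.

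The other 7 IP libraries of the series chose none of these regions and were used to look them up. WT EB are embryoid bodies that the wild-type cells formed in 4 days without LIF. In Tet2-KI ESC a tag was inserted at the Tet2 locus, and Tet2deltaRBD-KI ESC carry the tagged protein without its RNA-binding domain. A WT EB peak was found in 207 of 2073 WT ESC-only regions (9.99%) and in 189 of 336 TKO ESC-only regions (56.2%, interval 50.8 to 61.6%). By replicate, TKO ESC-only regions had a peak in 0.298, 28.0 and 52.7% of cases in WT EB 1 to 3, and WT ESC-only regions in 2.07, 5.31 and 4.34%. Shared regions were at 13.7, 57.6 and 63.4%, and all 14225 regions at 2.54, 11.1 and 16.8%. WT EB 2 and 3 carry the prefix 1703, as do the libraries that chose most TKO ESC-only regions, and WT EB 1 carries another prefix and has 498 peaks. Sharing a prefix and sharing biology cannot be told apart here. WT EB 3 had a peak in 71 of the 91 TKO ESC-only regions in coding sequence (78.0%), in 70.5% of the 88 intronic ones within 300 bp of a splice site, and in 20.6% of the 102 further away. For shared regions these values were 86.6, 85.6 and 50.2%. Of the WT ESC-only regions in coding sequence it had 15 of 138 (10.9%).

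The knock-in stem cells had peaks in 58.7% of WT ESC-only and 50.0% of TKO ESC-only regions in at least 1 of 4 libraries, and in 94.3% of shared regions. Tet2-KI ESC 1, with 10383 peaks, had 50.7% of WT ESC-only and 42.0% of TKO ESC-only regions, and the shares in Tet2-KI ESC 2 were 17.4 and 21.1%. In Tet2deltaRBD-KI ESC 1 and 2 they were 18.9 and 9.70% of WT ESC-only, and 14.9 and 2.98% of TKO ESC-only regions. Over all 14225 regions these 4 libraries had peaks in 40.4 and 20.1% (Tet2-KI ESC) and in 18.4 and 9.86% (Tet2deltaRBD-KI ESC). Any of the 7 libraries had a peak in 60.1% of WT ESC-only, 97.3% of shared and 76.2% of TKO ESC-only regions. With lists of equal length, WT EB 1 to 3 had peaks in 6.22, 17.3 and 8.89% of WT ESC-only and in 3.21, 67.0 and 79.4% of TKO ESC-only regions. At that length, 86.2% of the TKO ESC-only regions had a weaker peak in a full WT ESC list, against 38.7% of the WT ESC-only regions in a full TKO ESC list. The full WT ESC lists are the longer ones, and the full list of TKO ESC replicate 1 is no longer than its shortened one.

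**Figure D4:**
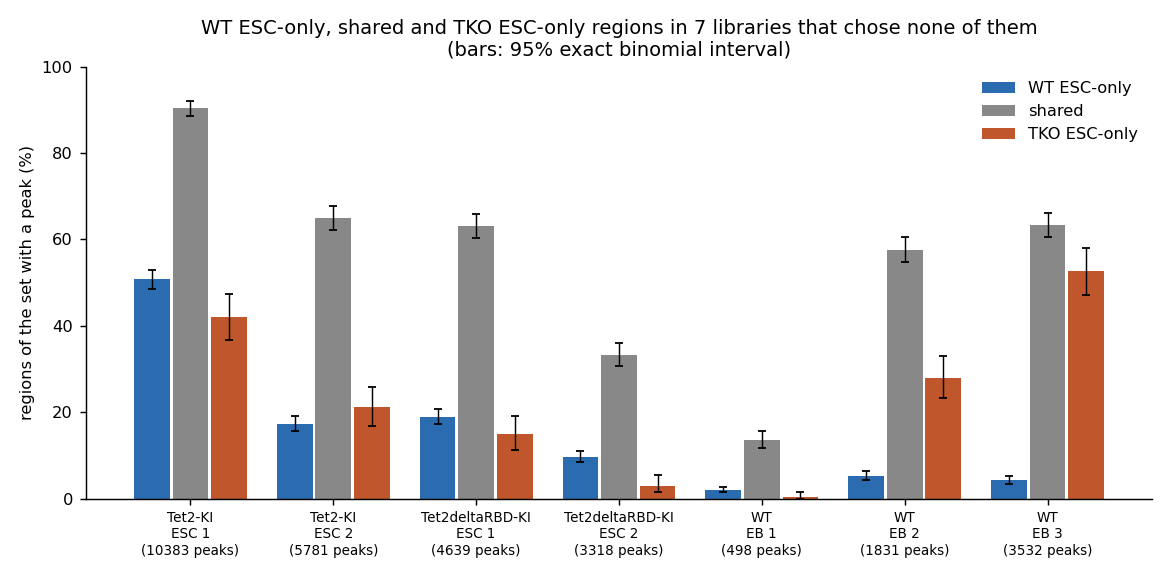
Share of WT ESC-only, shared and TKO ESC-only regions (%) with a peak in each of the 7 other IP libraries, with the number of peaks of each library. Error bars are 95% exact binomial intervals. TKO ESC-only regions exceed WT ESC-only regions in WT EB 2 and 3 (28.0 and 52.7% against 5.31 and 4.34%), and the sets are closer in the knock-in libraries.

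In the 1185 shared regions, the level of enrichment was compared by its rank within each library. The median rank of these regions was 59.4, 78.2 and 75.9 in WT ESC and 57.2, 73.4 and 70.9 in TKO ESC. In each replicate number the TKO ESC value was the lower one, but the groups overlapped. The means were 71.2 ± 10.3 and 67.2 ± 8.68 (SD, 3 libraries a group), a difference of -4.02 (exact permutation p = 0.5). This difference was 0.999 without TKO ESC replicate 1. These ranks were taken within full lists of unequal length. With lists of equal length the difference was -0.517 (exact permutation p = 0.9), over the 232 regions shared at that length. The median fold enrichment ran the other way, at 7.29 ± 0.620 in WT ESC and 8.23 ± 1.67 in TKO ESC (mean ± SD of 3 libraries, exact permutation p = 0.5), so the direction depends on the scale. The Spearman correlation of ranks over shared regions was 0.522 to 0.625 within WT ESC, 0.421 to 0.542 within TKO ESC and 0.346 to 0.493 between groups. TKO ESC replicate 1 correlated at 0.481 to 0.493 with the WT ESC libraries and at 0.421 and 0.442 with the other TKO ESC libraries. These correlations are across regions, which are not independent.

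Region by region, limma called 0 of the 1185 shared regions at an adjusted p under 0.05 (0%), and the smallest adjusted p was 0.307. At an unadjusted p under 0.05 there were 119 regions (10.0%), 72 lower and 47 higher in TKO ESC. The median standard error of a difference was 15.6 ranks, so 0 calls does not show that the levels were equal. Log2 fold enrichment in place of the rank also gave 0 calls and 111 regions at the unadjusted level. Leaving out 1 library gave 0 calls each time, with a smallest adjusted p of 0.0942 without TKO ESC replicate 3. Over all shared regions 643 or 54.3% had a lower and 542 a higher mean rank in TKO ESC, and the median difference was -1.73. The unadjusted list was split by part, with 39 lower and 20 higher of 635 introns, 15 lower and 4 higher of 116 intergenic regions, and 11 lower and 21 higher of 358 in coding sequence. In a separate fit of the 284 regions with a peak in all 6 libraries, 23 passed the unadjusted level, 23 of them lower in TKO ESC and 0 higher. These ranks were taken within full lists of unequal length. With lists of equal length, 232 regions were shared, and at the unadjusted level 15 were lower and 9 higher in TKO ESC. The part of list length in the split of the 284 regions was not tested.

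Some parts separated the groups in the median rank of their shared regions. The 116 intergenic regions had median ranks of 61.4, 64.1 and 71.9 in WT ESC and 55.1, 51.6 and 53.9 in TKO ESC. All TKO ESC libraries were lower, with a difference of -12.3 (exact permutation p = 0.1, the smallest possible, q = 0.300 over 6 parts). The 25 regions in 3′ UTRs had 89.4, 91.9 and 90.7 in WT ESC and 81.5, 78.6 and 65.4 in TKO ESC, a difference of -15.5 without overlap (exact permutation p = 0.1, q = 0.300). The 358 regions in coding sequence had a difference of 5.99 in the other direction and the 635 in introns one of -5.60, and both overlapped (exact permutation p = 0.5 each). All these ranks were taken within full lists of unequal length, and the part of list length in them was not tested.

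**Figure D5:**
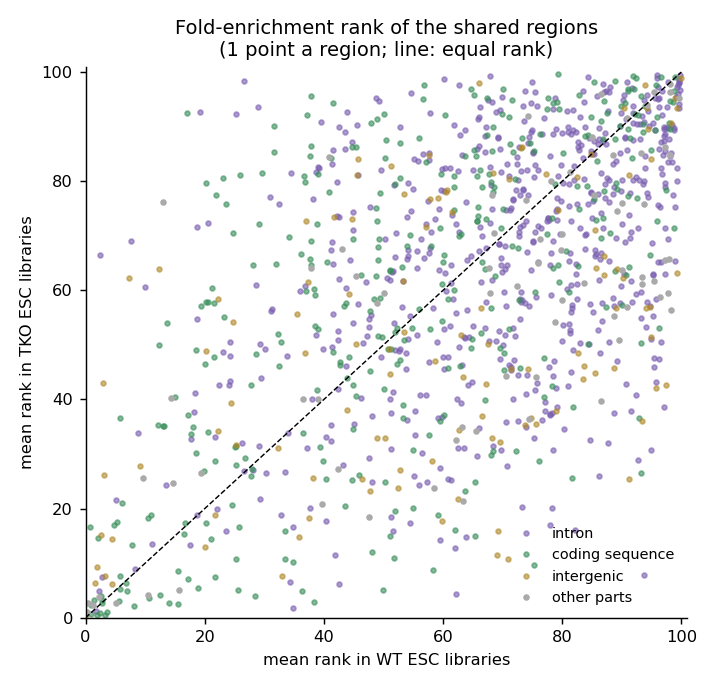
Mean rank of fold enrichment (0 to 100) of each of the 1185 shared regions in WT ESC (horizontal) and TKO ESC (vertical), with introns, coding sequence, intergenic sequence and other parts in different colours and the line of equal rank. Points spread widely on both sides of the line, 643 below it and 542 above it.

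Shared regions among those with the smallest p in each direction are described here, although none passed the threshold (limma adjusted p = 0.307 each). An intron of 2900026A02Rik had peaks in all 6 libraries, with ranks of 97.2, 96.9 and 90.5 in WT ESC and 49.7, 28.1 and 14.6 in TKO ESC. Coding sequence of Usp34, a ubiquitin-specific protease, had ranks of 79.7, 63.7 and 82.2 in WT ESC and 6.17 and 13.03 in TKO ESC replicates 2 and 3. An intron of Tmem132c had 91.0 and 96.4 in WT ESC 1 and 3 against 13.6 and 2.15 in TKO ESC 1 and 3. In the other direction, an intron of Utrn (utrophin, a dystrophin relative) had ranks of 25.7 and 27.5 in WT ESC 1 and 2 and of 98.9 and 98.0 in TKO ESC 2 and 3. Coding sequence of Ccdc18, a coiled-coil protein, had 23.4 and 10.6 in WT ESC 1 and 3 and 96.4 and 88.5 in TKO ESC 2 and 3. Tmem132c, Utrn and Ccdc18 had values in 2 libraries of each group. The intergenic region at chr4:29328444-29328677 had 10.2, 12.5 and 14.2 in WT ESC and 61.8 and 65.9 in TKO ESC 2 and 3. The intergenic region at chr4:58266838-58267096 had 8.96, 1.72 and 11.4 in WT ESC and 53.6 and 70.9 in TKO ESC 1 and 3.

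The WT ESC-only regions with the highest ranks in all 3 WT ESC libraries were all intronic (12 of 12). They were picked among regions in coding genes, 1 a gene, where 80.2% of WT ESC-only regions and 78.1% of those in 3 libraries are intronic. The fold enrichments below are of replicates 1 to 3, and no TKO ESC library had a peak. Lama1, which encodes a laminin chain of basement membranes, had 11.4, 22.6 and 24.3. Trp53, the p53 tumour suppressor, had 14.4, 11.0 and 12.9 in its first intron (chr11:69394167-69394381, summit 263 bp from a splice site). Fto, an RNA N6-methyladenosine demethylase, had 11.9, 16.3 and 10.4. These values all lay above the median of their library, which follows from the choice of the highest ranks. Epha4, an ephrin receptor of axon guidance, had 10.2, 14.7 and 14.0. Adat1, a tRNA adenosine deaminase, had 11.4, 9.15 and 13.8, and Med13l, a subunit of the Mediator kinase module, had 9.51, 14.7 and 10.2. The Zfp704 repeat printed above had 9.35, 16.6 and 12.05. The remaining 5 regions were in Cdc42bpa (a kinase downstream of Cdc42), Erc1 (a scaffold protein of the cell cortex), BC030336, Igsf21 (an immunoglobulin superfamily protein) and Ppp6r3 (a regulatory subunit of a protein phosphatase), with fold enrichments between 8.56 and 18.8.

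The TKO ESC-only regions with the most libraries and the highest ranks lay in exons and introns. The 3′ UTR of Riok2, a kinase of small ribosomal subunit maturation, had fold enrichments of 10.6, 33.0 and 8.84 in TKO ESC replicates 1 to 3. Tbca, a tubulin folding cofactor, had 7.25, 11.9 and 7.79 at the exon edge printed above. Smarcc2, a core subunit of the BAF chromatin remodelling complex, had 6.38, 8.19 and 10.6 in an intron 35 bp from a splice site. Among these, TKO ESC replicate 2 was the highest in Riok2 and Tbca and replicate 3 in Smarcc2. Coding sequence of Rdx (radixin, which links actin to the membrane) had 5.74, 8.87 and 5.39, and an intron of Odz3 (a teneurin), 3853 bp from a splice site, had 7.25, 4.89 and 5.60. The next 5 had peaks in replicates 2 and 3 and none in replicate 1. They were coding sequence of Rsbn1l (17.7 and 13.1) and of Hdac2, a histone deacetylase (14.4 and 11.5), an intron of Jmjd1c, of the family of histone H3 lysine demethylases (21.5 and 11.6, 10913 bp from a splice site), and introns of Krr1, a ribosome biogenesis factor (13.3 and 12.2), and of Sec62, of protein translocation into the endoplasmic reticulum (13.2 and 12.6, 53 bp from a splice site).

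Several genes carried many regions of one set. Zfp704, a zinc finger gene, had 8 WT ESC-only regions among its 17 regions, 0 shared and 0 TKO ESC-only, 7 of them in introns. Fgfr2, a receptor of fibroblast growth factors, had 6 WT ESC-only regions of 21, but the annotated span of this gene takes in other genes (Ate1, Tacc2 and Ctbp2), which share 5 of the 6. Btbd11, Gm13251 and Myst4 (a histone acetyltransferase) had 4 each, Myst4 beside 1 shared region. Regions of the TKO ESC-only set were most numerous in Etl4 and in Smarca5, the ATPase of ISWI chromatin remodelling complexes, with 4 each, Etl4 beside 2 shared regions. Of the 4 in Smarca5, 1 was in coding sequence and 3 were intronic at 52, 38 and 50 bp from a splice site, with fold enrichments between 5.99 and 12.1 in TKO ESC 2 and 3. Atrx, another chromatin remodelling ATPase, had 3 TKO ESC-only regions beside 9 shared ones, and Gm13242 had 3.

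Lists of genes by function were counted against the background of 54.5% (WT ESC-only) and 24.1% (TKO ESC-only) of genes with a region in 2 or more libraries of the group. Most of these lists are small, and no test was made of them. Of 18 annotated pluripotency transcription factors, 3 had such a WT ESC region and in all 3, Esrrb, Nr5a2 and Sox2, it was WT ESC-only, with no TKO ESC peak anywhere in the gene. The latter held for 58.9% of all 1017 genes with a WT ESC-only region. Sox2 had 2 regions in its 3′ UTR, with fold enrichments of 3.38 and 3.73, and 5.10 and 2.83, in WT ESC 2 and 3. Esrrb, a nuclear receptor of self-renewal, had 2 intronic regions with values between 5.26 and 6.74. Most of these values lie below the median of their library. No factor of this list had a region in 2 TKO ESC libraries. A peak in any library was found in 5 of the factors in WT ESC and in 2 in TKO ESC.

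Of chromatin complexes, Polycomb repressive complex 2 had WT ESC-only regions in 3 of 5 genes (Jarid2, Mtf2 and Rbbp7) and TKO ESC-only regions in 2 of 4 (Mtf2 and Suz12). Jarid2, a cofactor that brings the complex to chromatin, had 3 WT ESC-only intronic regions, among them 1 at 8.46, 6.10 and 10.2 and 1 at 7.17, 5.16 and 8.29 in WT ESC 1 to 3. It also had a shared intronic region, at 8.09 and 10.1 in WT ESC 2 and 3 and 8.76 and 11.9 in TKO ESC 2 and 3. Polycomb repressive complex 1 had 2 of 2 (Cbx7 and Phc1) and 0 of 1. The BAF complex had 3 of 5 (Arid1b, Phf10 and Smarcc1) and 2 of 4 (Smarcc1 and Smarcc2). The NuRD deacetylase complex had 1 of 4 (Mbd3) and 1 of 2 (Hdac2). The Mbd3 region lay in the 5′ UTR with fold enrichments of 3.16, 3.54 and 3.78 in WT ESC. Smarcc1, a core BAF subunit, had regions of every set. One stretch of its coding sequence was WT ESC-only (4.32, 5.03 and 3.09), a further one was TKO ESC-only (5.56 and 5.89 in TKO ESC 2 and 3), and an intronic region was shared (5.35, 19.4 and 11.9 in WT ESC, 29.2 and 19.2 in TKO ESC 2 and 3).

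Among RNA-binding proteins, of 13 hnRNP genes with a region in 2 or more WT ESC libraries, 4 had a WT ESC-only region (Hnrnpa1, Hnrnpab, Hnrnpd and Hnrnpl), and of 11 in TKO ESC, 1 had a TKO ESC-only region (Syncrip). The SR splicing factors had 2 of 4 (Srrm2 and Srsf11) and 1 of 4 (Tra2b), and paraspeckle and FET proteins had 3 of 5 (Nono, Sfpq and Taf15) and 2 of 4 (Pspc1 and Taf15). Sfpq, a paraspeckle protein, had 3 shared regions in coding sequence, one of them at 14.6, 8.75 and 7.88 in WT ESC and 10.3, 5.78 and 6.99 in TKO ESC, so that the groups overlapped there. Elongation factors, the Paf1 complex included, had WT ESC-only regions in 6 of 8 genes (Aff1, Ell2, Leo1, Ssrp1, Supt5h and Supt6h) and TKO ESC-only regions in 2 of 3 (Rtf1 and Supt16h). Paf1 itself had a shared region in coding sequence with 6.04, 8.34 and 4.56 in WT ESC and 6.76, 10.1 and 4.99 in TKO ESC. The order of the replicates was the same in both groups.

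Axon guidance and adhesion genes had WT ESC-only regions in 11 of 16 genes (Cdh2, Cdh4, Cntn1, Dab1, Epha4, Epha5, Ephb2, Ntng1, Plxna4, Ptprf and Unc5c) and TKO ESC-only regions in 1 of 6 (Robo1). Of the 11 genes, 7 had no TKO ESC peak anywhere, against 58.9% of all 1017 genes with a WT ESC-only region. Unc5c, a netrin receptor, had 8.46, 14.7 and 10.5 in WT ESC 1 to 3. The regions of Cdh2, Unc5c, Ephb2, Epha5 and Ntng1 lay over tandem repeats, of AG or CT in 3 and of AAAG in 2 of them. Cdh4, a cadherin, had its main signal in a shared intronic region, at 39.7, 9.47 and 20.5 in WT ESC and 20.7, 38.9 and 25.5 in TKO ESC. Coding sequence of Mdc1, a mediator of the DNA damage checkpoint printed above, was shared too, at 35.8, 24.6 and 11.9 in WT ESC and 9.56, 12.9 and 30.4 in TKO ESC. In both regions the groups overlapped. The p53 and DNA damage list had 1 of 4 genes WT ESC-only (Trp53) and 3 of 5 TKO ESC-only (Atm, Brca2 and Rad50). The signalling list (LIF, FGF, BMP and Wnt) had 2 of 2 (Fgfr2 and Tcf7l1) and 1 of 3 (Apc). Of the RNA N6-methyladenosine list 1 of 3 was WT ESC-only (Fto) and 0 of 2 TKO ESC-only. The enzymes of DNA cytosine methylation and oxidation had 0 of 2 and 0 of 1, and RNA 5-methylcytosine enzymes and readers had no region in 2 libraries of either group.

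The Tet genes did not separate the groups. An intronic region of Tet1 at chr10:62319644-62319887 was shared, with a peak in all 6 libraries and fold enrichments of 2.77, 5.29 and 5.25 in WT ESC and 4.69, 7.27 and 5.00 in TKO ESC. Tet2 had a peak in 1 WT ESC library, and Tet3 had none in the 6 libraries. A peak list does not measure expression, and an intronic peak says nothing of the deletion, so these values do not check the genotype. Of markers of other cell types, in lists of 6 each for endoderm, mesoderm, ectoderm, trophoblast and fibroblast, all were in the annotation except 1 ectoderm gene. Of the annotated markers Dab2 (endoderm) alone had a region in 2 WT ESC libraries, and none had a peak in a TKO ESC library.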

How the data were processed

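Total RNA of 3 WT ESC and 3 TKO ESC samples was sonicated and immunoprecipitated with an anti-5hmC antibody. Per the labels and the study's methods, the authors used FastQC, Trimmomatic, Bowtie2 and STAR, with mouse build mm9 and RefSeq transcripts, and MACS2 (q-value under 0.05) for peaks of an IP library over its own input, with the summed length of transcripts as genome size. Whether the libraries keep strand is not given in the sources used here. The deposited lists give 200 bp around each summit and the fold enrichment there, a ratio of IP over input with no counts, so the depth per sample is unknown.

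Groups came from the sample titles. Peaks overlapping by at least 1 bp were merged (Python 3.11.15, pandas 2.3.3, numpy 2.4.6, scipy 1.17.1), and a region took the highest peak of a library. Parts of genes came from GENCODE M1 and sequence from NCBIM37 (pysam 0.24.0, samtools 1.23.1). Shares have 95% Clopper-Pearson intervals. Library values were compared by two-sided exact permutation tests over 20 relabellings, and ranks (0 to 100) by limma 3.58.1 in R 4.3.3 with Benjamini-Hochberg adjustment, leaving a library without a peak out of that region. The limma step was also run on simulated ranks with large planted shifts, which says nothing of its power for smaller ones. No library was a duplicate of another, with up to 1.24% identical intervals over 15 pairs.

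Regions named were the 12 WT ESC-only regions with the highest lowest rank among those in all 3 WT ESC libraries. From the TKO ESC-only set came the 10 with the most TKO ESC libraries, then the highest lowest rank. Both choices took 1 region a gene, in coding genes. Also named were the 4 shared regions with the smallest p in each direction, as none passed, and the 6 and 4 genes with the most regions. Genes of functional lists, genes the study names and the Tet genes were named too. Of these, 1 gene and 1 shared region are not reported here. The members and lists were chosen with earlier results of these data known. Distance classes of splice sites, AG/CT repeats and C content were added after seeing the data, as were the transcript parts and sequence features with shortened lists or replicates 2 and 3 alone. The alternatives are given at the end.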

Additional observations from a re-analysis of the deposited data

How the results depend on the processing

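Over 21 results, 170 of the values under the alternatives stayed within 1.5 times (counts), within the 95% interval (shares) or on the same side of 0 and of the threshold (tested differences), 49 moved further and 17 changed direction. WT ESC-only regions numbered 767 (45.8%) with a fold enrichment above the pooled median of 6.07, 225 (37.6%) with lists of 964 peaks, 495 (32.2%) in all 3 libraries and 1320 (43.9%) in replicates 2 and 3, in 426, 143 and 258 coding genes for the first 3 of these. TKO ESC-only regions numbered 218 (37.9%) with lists of 964 peaks, in 162 genes, and 7 (2.03%) in all 3 libraries, in 5 genes. Their share was 29.1% above the pooled median and 19.7% in replicates 2 and 3. The intronic share was 82.8% above the median, 86.5% with shortened lists and 73.8% with touched exons for WT ESC-only regions, and 55.2% and 34.2% for TKO ESC-only regions under the latter 2. The median rank difference of shared regions was -0.517 with shortened lists, and log2 fold enrichment turned the median difference to 0.16. With shortened lists the differences in percentage points were 0.415 for 5′ UTR, -0.553 for 3′ UTR and -3.56 for introns, which gave -5.54 with touched exons. Touched exons gave 18.99 for coding sequence. Replicates 2 and 3 gave -0.129 for noncoding genes and -0.917 for at most 35% pyrimidine.

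Leaving out 1 library gave 0 to 0 limma calls, a median rank difference of -13.1 to 0.999 (positive without TKO ESC replicate 1), 889 to 2519 WT ESC-only regions (41.2 to 60.1%) in 439 to 1203 genes with 76.8 to 81.0% intronic, and 16 to 558 TKO ESC-only regions (3.19 to 28.9%) in 12 to 379 genes with 50.0 to 67.7% intronic. The differences ran from 8.38 to 13.3 points for coding sequence, -15.2 to -11.3 for intergenic sequence, -1.80 to 0.803 for 5′ UTR, 0.0130 to 0.554 for 3′ UTR, -2.41 to 8.46 for introns, -0.246 to 0.387 for noncoding genes, -14.5 to -10.6 for tandem repeats, -2.48 to -1.22 for pyrimidine, -4.78 to 0.0563 for GC, -5.31 to -3.76 for at least 65% pyrimidine and -2.93 to 4.53 for at most 35%. The cause of these changes was not tested.

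Over shared regions, deviations of samples with the same replicate number correlated at 0.199, -0.022 and 0.031, and the numbers were not taken as pairs in the main tests. Library values did shift together in replicate 1. Its median rank of shared regions was 59.4 in WT ESC and 57.2 in TKO ESC, against 70.9 to 78.2 in replicates 2 and 3. With the replicate block limma made 0 calls (98 at an unadjusted p under 0.05, against 119), and the paired difference in median rank was -4.02 (exact permutation p = 0.25, the smallest possible). A block for the prefix gave 0 calls and 135 unadjusted. The unknown depth limits what an absent peak means, and 3 libraries a group limit the exact permutation p to 0.1.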
